A study of Drosophila melanogaster with 4 samples.

Results

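Chromosome arm 3R is the right arm of the third chromosome of Drosophila melanogaster and measures 27905053 bp in the release 5 assembly. The regions described here are those that the authors' replicate-set list placed on 3R and named as enriched for H3K36me2, the dimethylated form of lysine 36 on histone H3. There were 1386 of them, out of 6411 enriched regions on all sequences. None of the depleted regions in the 3 deposited lists lay on 3R. The members were matched by an overlap of at least 1 bp to the list of each ChIP replicate, which held 1364 regions on 3R in replicate 1 and 1331 in replicate 2.

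The study measured H3K36me2 by ChIP-seq in head nuclei from adult flies of the wild-type strain Oregon-R, given by the labels as Oregon-R-modENCODE and of mixed adult age. There were 2 groups, the H3K36me2 ChIP group with 2 samples and the input group with 2 samples, an input being sheared chromatin that was not immunoprecipitated. The flies were raised in population cages and heads were separated with sieves, so each sample pools many animals and every cell type of the head. A region with a low score can therefore hold the mark in few cells or at a low level per cell, and these cannot be told apart. Whether separate fly collections were used for each replicate is not stated in the labels, and the spread between replicates may therefore be technical.

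Methylation of lysine 36 is associated with transcribed chromatin. In Drosophila dimethylation is laid down mainly by the methyltransferases MES-4 and ASH1, while SET2 adds the third methyl group along the bodies of transcribed genes. The mark counteracts the Polycomb silencing machinery, which methylates lysine 27 of the same histone only poorly where lysine 36 is already methylated. Arm 3R carries both Hox gene clusters of the fly, the Antennapedia and bithorax complexes, which are classic Polycomb targets. Regions are given here by position only, because genes were not placed on release 5 coordinates.

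H3K36me2 covered about one base in 4 of the arm, in many regions of a few kilobases. Regions of replicate 1 covered 7.11 Mb, or 25.5% of 3R, and those of replicate 2 covered 7.02 Mb, or 25.1%. The mean was 25.3% ± 0.25 (SD, n = 2), and the replicate-set list covered 27.8%. The first region of the set began at base 919 and the last ended at base 27894215, so the mark was listed from one end of the sequence to the other. That first region scored 0.260 and overlapped replicate 1 only, and the first region of replicate 2 began at base 3587. Depth is unknown, since the lists give no read counts.

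The replicates marked largely the same stretches of 3R. Of the 1386 members, 1156 overlapped a region in both replicate lists, or 83.4% (Wilson 95% interval 81.4 to 85.3%, counting error only). Over all sequences the same share was 81.5%, so the members were close to this background. The replicate set belongs to the same 2 ChIP samples, so this share is not an independent measure of how well the replicates agree. A further 65 members overlapped a region of replicate 1 only, 33 overlapped one of replicate 2 only, and 132 overlapped neither. Over all sequences these counts were 242, 270 and 674 of the 6411 regions. The share that overlapped neither was 9.52% on 3R, close to 10.5% over all sequences. The 1156 members found in both lists held 95.3% of the covered length. That share counts the whole length of a member overlapped by at least 1 bp, so it does not measure agreement base by base. The bases covered in both replicates came to 6.74 Mb of the 7.39 Mb covered in either, a Jaccard index of 0.912.

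The 132 members found in neither replicate were short and mostly faint. Their median length was 1274 bp, against 4722 bp for members found in both. Their median score was 0.321, against 0.995. The score is the authors' own value per region, on a scale that is not stated. The replicate lists held no 3R region shorter than 1301 bp, whereas 73 members were shorter than that, and 69 of these 73 were among the 132. Among the 1313 members of at least that length, 88.0% overlapped both replicates.

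Short members with high scores were the exception to this. The region 3R 2005557 to 2006579 was 1.02 kb long with a score of 2.44, the tenth highest on the arm, and neither replicate list held a region nearby. The nearest was 24.3 kb away in replicate 1 and 24.4 kb away in replicate 2. Of the 132, 2 others had a score of 1 or more, and they were singled out after their values were seen. They were 3R 831536 to 833547 with a score of 1.76 and 3R 22383946 to 22385033 with a score of 1.10. The first lay 37.2 kb from the nearest region of replicate 1 and 47.3 kb from that of replicate 2, and the second lay 5.99 and 6.06 kb away. These 3 regions thus rest on the replicate-set list alone.

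**Figure D1:**
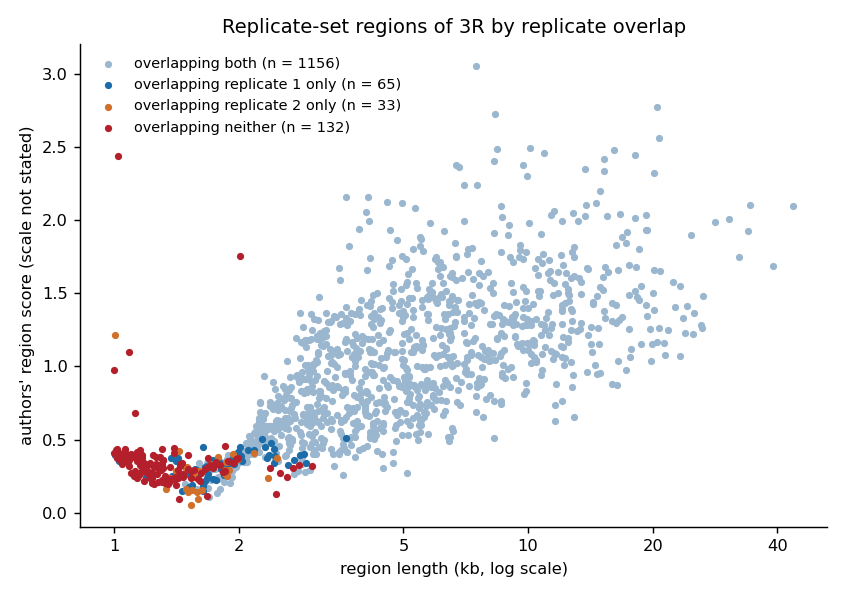
Each point is 1 of the 1386 replicate-set regions of 3R, with its length in kb on a log axis and the authors' score, and colours give the replicate lists in which it was overlapped. Regions found in neither replicate (132) gather at the short, low-scoring end, apart from a few such as the 1.02 kb region with a score of 2.44.

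Regions missing from the other replicate were more frequent in replicate 1 than in replicate 2 on this arm. In replicate 1, 73 of the 1364 regions had no overlap in replicate 2, and 94.6% did (Wilson interval 93.3 to 95.7%), against 95.5% over all sequences. In replicate 2, 38 of the 1331 regions had none in replicate 1, and 97.1% did (96.1 to 97.9%), against 95.1% over all sequences. With 1 list per replicate this difference has no replicate check. In replicate 1 the median unmatched region was 1536 bp long, the median score was 0.488, and all 73 scored below the median of their list. Those of replicate 2 had medians of 1597 bp and 0.424, and 37 of the 38 scored below the median. The remaining one, 3R 17127763 to 17129392, was 1.63 kb long with a score of 1.50 and was singled out after its value was seen. The replicate-set list overlapped 70 of the 73 and all 38.

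The longest of these unmatched regions lay at varied distances from regions of the other list. In replicate 1 they were 3R 20312528 to 20316355 (3.83 kb), 3R 13690265 to 13693581 (3.32 kb), 3R 13607707 to 13610085 (2.38 kb), 3R 16515123 to 16517424 (2.30 kb) and 3R 16817894 to 16820187 (2.29 kb). Their distances to the nearest replicate 2 region were 17.7, 0.091, 1.33, 32.6 and 17.3 kb, in the same order. In replicate 2 they were 3R 9493357 to 9495678 (2.32 kb), 3R 6419224 to 6421311 (2.09 kb), 3R 27878360 to 27880276 (1.92 kb), 3R 4471541 to 4473421 (1.88 kb) and 3R 22185028 to 22186884 (1.86 kb). All 5 of these lay within 4.81 kb of a replicate 1 region. The scores of the 10 regions ran from 0.419 to 0.803.

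Where a member matched a single region in each replicate, its edges and its score were repeatable. This was so for 965 members, or 69.6%. Between replicates their starts differed by a median of 82 bp and their ends by 84 bp, and 92.5% of starts and 93.7% of ends lay within 500 bp of each other. Across these regions Pearson's r of the scores was 0.977 and Spearman's rho 0.971, but regions share their libraries and are not independent. The score of replicate 1 was higher by 0.027 on average, with an SD of 0.11 over regions, and it was the higher of the pair in 588 of the 965. Other members were cut into pieces in the replicate lists. In replicate 1, 118 members matched 2 regions and 14 matched 3 or more, and in replicate 2 these counts were 105 and 20.

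Length and score varied widely among the members. Lengths ran from 1001 to 43768 bp in the set, with a median of 3910 bp and the middle 90% between 1273 and 15971 bp. The medians were 3801 bp in replicate 1 and 3847 bp in replicate 2. Scores ran from 0.054 to 3.05 with a median of 0.858, and the medians were 0.984 in replicate 1 and 0.974 in replicate 2. Broad regions made up a larger share of the covered length than of the members. The 80 members of 15 kb or longer made up 5.77% of the members, against 5.13% of regions on all sequences, and held 21.1% of the covered length. The 264 members under 2 kb made up 19.0% of the members and held 5.21% of the covered length.

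Score rose with length over most of the range, but not at its short end. Across all members the Spearman rho was 0.81, and it was 0.82 in replicate 1 and 0.80 in replicate 2. Median scores were 0.313 under 2 kb, 0.698 from 2 to 5 kb, 1.18 from 5 to 10 kb, 1.35 from 10 to 15 kb and 1.50 at 15 kb or longer. Between 1.0 and 1.5 kb the relation ran the other way, with a rho of -0.58 over 121 members. From 1.5 to 2 kb it was 0.57 over 143 members. Only 1 of the 121 shortest members overlapped both replicates, compared with 64 of the 143. From 5 kb upwards all 546 members did. Among the 346 members with the lowest scores 37.9% overlapped both replicates, and in the 3 higher score groups of the same size to within 1 member it was 97.1% or more.

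The longest regions were not the highest-scoring ones, and none of the 10 longest was among the 10 highest. The longest was 3R 24517011 to 24560778, at 43.8 kb with a score of 2.10. It was a single region in each replicate, scored 2.15 in replicate 1 and 2.07 in replicate 2, and stood alone, with 74.4 kb free of regions before it and 71.7 kb after it. Next came 3R 22390561 to 22429607 (39.0 kb), which replicate 1 split into 3 regions and replicate 2 into 2. The third was 3R 741040 to 775403 (34.4 kb), which scored 2.10. Then followed 3R 16616190 to 16650090 (33.9 kb), 3R 24714806 to 24747212 (32.4 kb) and 3R 12907218 to 12937784 (30.6 kb). The remaining 4 of the 10 were 3R 19616650 to 19644984 (28.3 kb), 3R 10611362 to 10637826 (26.5 kb), 3R 18501709 to 18528011 (26.3 kb) and 3R 19581240 to 19607382 (26.1 kb). In each replicate no less than 84.9% of every one of the 10 was covered, and 3 of them were single regions in replicate 1 and 4 in replicate 2.

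The highest score belonged to a region of moderate length. This was 3R 17490428 to 17497925, at 7.50 kb, which scored 3.05 in the set, 3.17 in replicate 1 and 2.98 in replicate 2. Second was 3R 5827681 to 5848192 (20.5 kb), with 2.77 in the set, 2.85 in replicate 1 and 2.58 in replicate 2. The third was 3R 24434278 to 24442617 (8.34 kb), with 2.73 in the set, 2.92 in replicate 1 and 2.61 in replicate 2. The next were 3R 20567728 to 20588440 at 2.56, 3R 24921204 to 24931315 at 2.50, 3R 19173336 to 19181738 at 2.48, 3R 4653049 to 4669194 at 2.48, 3R 24657652 to 24668558 at 2.46 and 3R 27024121 to 27042276 at 2.44. The tenth was the unmatched 1.02 kb region described above. Each of the other 9 matched a single region in both replicates. For the second highest that region of replicate 2 also spanned the neighbouring member, so its 2.58 belongs to a longer region. The other 8 scored higher in replicate 1 than in replicate 2. The third highest and the longest member were neighbours on the arm, separated by the 74.4 kb gap named above.

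Spacing between regions ran from touching members to a gap of 324 kb. The median gap was 2563 bp in replicate 1, 2624 bp in replicate 2 and 2304 bp in the set, while the mean gap in the set was 14530 bp. Of the 1385 gaps between members, 466 were under 1 kb, or 33.6%, and together they made up 0.938% of the gap length. At the other end, 43 gaps of 100 kb or longer made up 3.10% of gaps and 33.5% of the gap length. Narrow gaps were thus frequent and short in sum, while a few long gaps took up much of the length between members.

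Most narrow gaps of 1 replicate were also open in the other. Replicate 1 had 421 gaps of 1 bp to 1 kb, and for 389 of them both flanking regions overlapped a replicate 2 region. In 319 of the 389, or 82.0%, some base of the gap lay outside the regions of replicate 2, and the other 70 were closed there. Of the 424 such gaps of replicate 2, 400 had both flanks matched, and 328 of the 400, or 82.0%, were open in replicate 1. The set contained 465 gaps of 1 bp to 1 kb, with a median of 362 bp, and 1 pair of members that touched without a gap. Of the 465, 452 were open in both replicates and 13 in 1 replicate only. Set regions mostly contained the replicate regions, so this count is largely fixed by how the lists relate. Scores of regions flanking a narrow gap were only weakly correlated. The Spearman rho of neighbouring scores was 0.10 across gaps under 1 kb and 0.06 over all 1385 neighbouring pairs, with 0.06 in replicate 1 and 0.09 in replicate 2. It did not fall steadily with gap length. The values were 0.014 at 1 to 5 kb, 0.19 at 5 to 10 kb and -0.013 at 10 to 50 kb. They were -0.036 at 50 to 100 kb and 0.14 at 100 kb or longer. For lengths the rho over all pairs was 0.07. These correlations describe pairs that share their libraries.

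**Figure D2:**
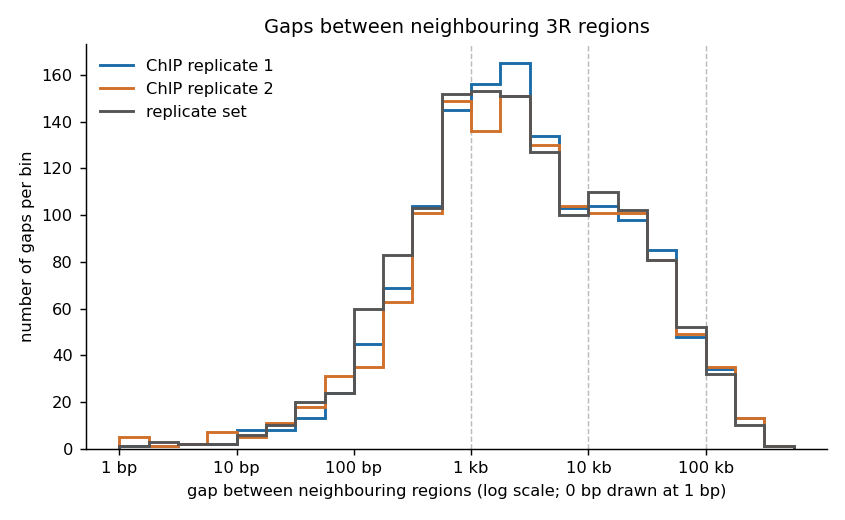
The lines count the gaps between neighbouring 3R regions in each list, in bins of equal width on a log axis in bp, with dashed lines at 1, 10 and 100 kb. The 3 lists have similar distributions, with medians of 2563 bp in replicate 1, 2624 bp in replicate 2 and 2304 bp in the set.

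Runs of members were described as domains, meaning members joined wherever fewer than 10 kb separated them. This gave 389 domains with a median length of 17.3 kb, which took up 9.84 Mb, or 35.3% of the arm, and members covered 78.9% of them. Single members formed 126 domains and held 8.41% of the covered length. Domains of 2 to 4 members numbered 167 and held 35.5%, those of 5 to 9 members numbered 71 and held 33.5%, and those of 10 or more numbered 25 and held 22.6%. Member size and score differed little between these 4 classes. Their median lengths were 3587, 3839, 3952 and 4155 bp, and their median scores 0.829, 0.872, 0.861 and 0.827, in order of rising domain size. The share overlapped in both replicates was 77.8% for single members and between 82.9 and 85.2% in the other classes.

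The longest domain was 3R 11012993 to 11251535, at 239 kb. It held 22 members, and regions covered 80.0% of it in replicate 1 and 78.7% in replicate 2. Second was 3R 1352424 to 1508101 (156 kb) with 19 members, covered over 79.3% in replicate 1 and 78.1% in replicate 2. The third was 3R 12804256 to 12937784 (134 kb) with 20 members. It was less dense, with 54.5% covered in replicate 1 and 53.8% in replicate 2, and it began at the edge of the longest empty stretch of the arm. Its last member was the 30.6 kb region named above, with scores of 2.02 in both replicates, whereas its first member scored 0.480. The next domains were 3R 5503473 to 5635102 (132 kb) and 3R 24632460 to 24753408 (121 kb). Replicate 1 covered 78.0% of the first of these and replicate 2 covered 71.1%, and for the second the shares were 79.1% in replicate 1 and 75.7% in replicate 2.

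The 53 domains of 50 kb or longer held 41.0% of the covered length, and members covered between 29.2 and 95.2% of each. By the share that members of the set covered, the densest was 3R 11868772 to 11928543, 59.8 kb long with 95.2%, of which replicate 1 covered 92.9% and replicate 2 covered 91.8%. Next by the same measure were 3R 18264553 to 18317187 with 88.6% in replicate 1 and 85.8% in replicate 2, 3R 6662910 to 6724262 with 87.2 and 87.5%, 3R 23051011 to 23118746 with 84.9 and 83.0%, and 3R 27397463 to 27449523 with 86.8 and 81.2%. The sparsest of the 53, chosen after its values were seen, was 3R 8068185 to 8130651 (62.5 kb). Its 10 members had scores of 0.231 to 0.451, and regions covered 13.2% of it in replicate 1 and 8.05% in replicate 2. Of these 10 members 3 overlapped both replicates and 5 overlapped neither. Among all members of 3R 83.4% overlapped both and 9.52% neither, but among the 346 lowest-scoring members only 37.9% overlapped both.

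**Figure D3:**
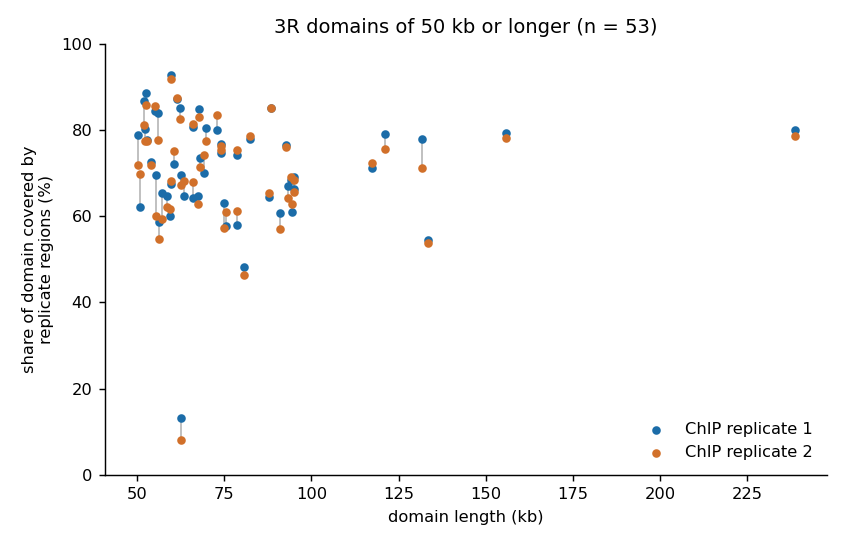
Each domain of 50 kb or longer (53 domains) is drawn at its length in kb, with the share covered by regions of replicate 1 and of replicate 2 as points joined by a line. Replicates differed by at most 9.39 percentage points in these domains, and 1 domain of 62.5 kb stands apart at 13.2% in replicate 1 and 8.05% in replicate 2.

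Empty stretches of 100 kb or longer, without an enriched region in any of the 3 lists, numbered 43 on 3R and came to 6.70 Mb, or 24.0% of the arm. Their median length was 138 kb, 7 of them measured 200 kb or more, and they were spread along the whole arm. The longest was 3R 12480650 to 12804255 (324 kb). It was bounded by faint members, a 1.72 kb region with a score of 0.313 on its left, which replicate 1 did not list, and a 2.20 kb region with a score of 0.480 on its right. The second, 3R 2585825 to 2888084 (302 kb), had edges at more similar positions in the lists. Its flanking members scored 1.09 on the left and 0.579 on the right, and its edges differed by at most 109 bp among the lists, against 2197 bp for the longest. The next were 3R 23800304 to 24062171 (262 kb), 3R 23118747 to 23371571 (253 kb) and 3R 3399735 to 3620009 (220 kb). Their edges differed by at most 348, 86 and 366 bp.

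The members on both sides of the empty stretches had a median score of 0.754 and a median length of 3.39 kb, against 0.858 and 3.91 kb for all members. Over the 43 stretches the largest difference of an edge among the lists had a median of 587 bp, and it was within 500 bp for 20 of them. It reached 105879 bp at 3R 8542002 to 8667702, chosen after its values were seen, where replicate 2 did not list the member on the right. The intervals between consecutive empty stretches had a median length of 455 kb, which includes members and the shorter gaps between them. The longest such interval, chosen after its values were seen, was 3R 19348527 to 21186418 (1.84 Mb). It held 115 members, and regions covered 40.0% of it in replicate 1 and 39.8% in replicate 2.

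A few members stood far from any other. Of the 12 members with at least 50 kb free of other members on each side, 8 overlapped both replicates and 0 overlapped neither. Among all members of 3R 83.4% overlapped both and 9.52% neither, and 12 members are too few to set apart from these shares. The 43.8 kb longest member was one of them. The median length of the 12 was 2755 bp and their median score 0.776, against 3910 bp and 0.858 for all members. The most isolated was 3R 11511277 to 11514681, 3.41 kb long with scores of 1.37 in replicate 1 and 1.40 in replicate 2, 138 kb from its left and 97.1 kb from its right neighbour. The next was 3R 2582708 to 2585824, which bordered the 302 kb empty stretch and scored 1.12 in replicate 1 and 1.09 in replicate 2. The third, 3R 8667703 to 8669469, scored 0.352 and was found in replicate 1 only. The other 2 of the 5 most isolated were 3R 1826474 to 1832942 (6.47 kb) and 3R 24062172 to 24064775 (2.60 kb).

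Along the arm the covered share changed from window to window far more than between replicates. In 56 windows of up to 500 kb the mean of the replicates ran from 7.36 to 54.3%, with a median of 24.6%. Replicates differed by a median of 0.502 and at most 2.16 percentage points. The window with the largest share, 3R 1000001 to 1500000, had 54.3% ± 0.62 (SD, n = 2). Next were 3R 24500001 to 25000000 with 45.8% ± 0.36, 3R 20500001 to 21000000 with 45.3% ± 0.41, 3R 19500001 to 20000000 with 45.0% ± 0.29 and 3R 25500001 to 26000000 with 44.6% ± 0.66. The smallest share was 7.36% ± 0.23 in 3R 26500001 to 27000000. It was followed by 3R 13000001 to 13500000 with 9.97% ± 0.23, 3R 24000001 to 24500000 with 10.7% ± 0.33, 3R 2500001 to 3000000 with 11.6% ± 0.35 and 3R 22000001 to 22500000 with 13.0% ± 0.50. High and low windows stood side by side, for instance 10.7% directly before 45.8%.

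Windows with a larger covered share had more members and longer ones. Over the 55 windows of full length the Spearman rho of covered share with the number of members was 0.83, with their median length 0.63 and with their median score 0.45. These values describe windows that share their libraries and, for count and length, are part of the covered share itself. The number of members per full window ran from 13 to 43, and the median score from 0.480 to 1.16. The replicate-set list covered more than the mean of the replicates in all 56 windows, by a median of 2.45 percentage points. Set regions mostly contained the replicate regions, so the direction of this difference is largely fixed by how the lists relate. The widest such difference, 6.24 points, was in 3R 8000001 to 8500000, which held the sparse domain and 12 of the 132 members found in neither replicate. In that window 43 members had a median score of 0.530.

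**Figure D4:**
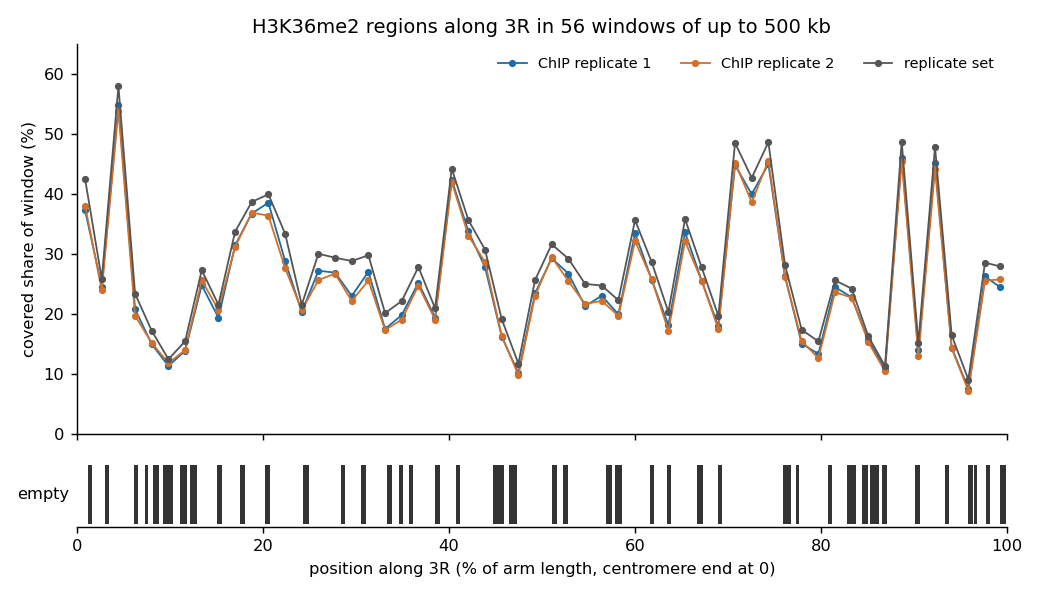
The lines give the covered share of 56 consecutive windows in each list against position as a percentage of the arm, and black bars mark the 43 empty stretches of 100 kb or longer. The replicate lines nearly coincide while the share runs from 7.36 to 54.3%, and empty stretches occur along the whole arm.

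Over longer spans the covered share varied less. The proximal part, from base 1 at the centromere end to the midpoint at 13952526, was covered over 25.5% ± 0.22, and the distal part over 25.2% ± 0.27 (SD, n = 2). The ratio of proximal to distal was 1.01 in both replicates. The same share was reached with different numbers of regions. The proximal part held 50.7 regions per Mb in replicate 1 and 50.0 in replicate 2, against 47.1 and 45.4 in the distal part. In the replicates the proximal regions were shorter, since their median was 3701 bp in replicate 1, against 3984 bp for distal regions, and 3659 bp in replicate 2, against 4038 bp. They also scored lower, with a median of 0.957 in replicate 1, against 1.03 for distal regions, and of 0.959 in replicate 2, against 1.01. Median lengths were close in the set, 3921 bp in the proximal and 3902 bp in the distal part. Of the broad members of 15 kb or longer 35 began in the proximal and 45 in the distal part, and empty stretches numbered 21 and 22. In sections of 5 Mb the covered share was between 25.3 and 26.2% except in the remainder from base 25000001 to the telomere end, which had 21.7% ± 0.25 (SD, n = 2).

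Among the 5 large arms 3R had the second largest covered share. Its 25.3% ± 0.25 was below 28.9% ± 0.20 on 2R and above 23.4% ± 0.087 on 3L, 22.9% ± 0.56 on X and 22.5% ± 0.060 on 2L (SD, n = 2). Against 2L, 2R and 3L together, which were covered over 24.8% ± 0.11, the ratio was 1.02 ± 0.0054 (SD, n = 2), with 1.03 in replicate 1 and 1.02 in replicate 2. No permutation test over 2 replicates reaches a p of 0.05, and the arms were therefore only set against the replicate SD, without a test.

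Narrow gaps took a larger share of gaps on 3R than on the other arms in both replicates. Gaps under 1 kb made up 31.6% ± 0.86 of the gaps on 3R, against 27.6% ± 0.16 on 2L, 27.8% ± 0.031 on 2R, 27.3% ± 0.32 on 3L and 25.4% ± 2.7 on X (SD, n = 2). In the replicate-set list the values were closer, 33.6% on 3R against 31.0 to 32.0% on the other 4. Broad regions of 15 kb or longer made up 4.68% ± 0.024 of regions on 3R, close to 4.55% ± 0.35 on 2R and above 3.44% ± 0.21 on 2L, 3.40% ± 0.24 on 3L and 2.50% ± 0.15 on X (SD, n = 2). The median score of 0.979 ± 0.0071 on 3R was below 1.07 ± 0.0050 on X, within the replicate SD of 0.975 ± 0.011 on 2R and 0.978 ± 0.0070 on 3L, and above 0.956 ± 0.0074 on 2L (SD, n = 2).

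**Figure D5:**
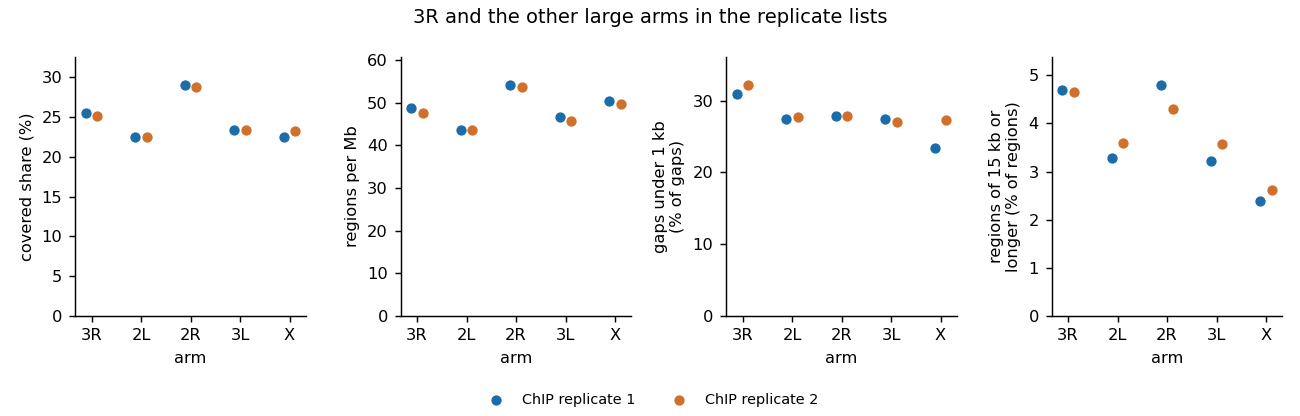
Each panel gives 1 value per ChIP replicate and arm, for the covered share, the regions per Mb, the share of gaps under 1 kb and the share of regions of 15 kb or longer. On 3R the share of narrow gaps was 31.0% in replicate 1 and 32.2% in replicate 2, above every other arm shown, while its covered share lay below that of 2R.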

How the data were processed

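Oregon-R adult head nuclei were profiled with 2 H3K36me2 ChIP samples and 2 inputs. Bowtie 0.12.7 is named in the submitters' processing notes as a tool, per the labels. The authors deposited 3 lists of regions on FlyBase release 5, per the file headers, 1 for each replicate and 1 for the replicate set. The scale of the deposited score per region is not stated. The region caller, its threshold and the making of the replicate set were not given in the labels or headers used here. No read counts or input values were analysed, and the lists allow no check of the tissue against marker genes.

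From these lists 3R regions named as enriched were taken, and regions of a list did not overlap. Covered share is summed region length over the arm length in the file headers. Replicates were matched by at least 1 bp, and shares carry Wilson 95% intervals. The software was SciPy 1.17.1, NumPy 2.4.6, pandas 2.3.3 and matplotlib 3.10.9 under Python 3.11.15. The computations were tested on simulated data, recovering all values in 20 of 20 lists, and counts of overlaps were checked with bedtools 2.31.1. The members, lists and alternatives were chosen with earlier results of these data known. Regions named by position are the 10 longest and 10 highest-scoring, the 5 longest and 5 densest domains of at least 50 kb, the 5 longest empty stretches, the 5 most and 5 least covered windows, the 5 longest unmatched regions per replicate, the 5 most isolated members and the first and last. Others are identified as chosen after their values were seen. The gene table used here describes release 6, so no gene and no sequence is given. Alternatives tried were an overlap of 50%, only the higher-scoring 50% of each list, merging of regions less than 1 kb apart, use of the replicate-set list, other window sizes, joining distances and stretch lengths, other spans of the arm, and leaving out each replicate.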

Additional observations from a re-analysis of the deposited data

How the results depend on the processing

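For 15 results 58 alternatives were computed. In 29 the value stayed within 1.5 times (counts), its Wilson interval (shares of regions) or 1 SD of the replicates (other values). In the other 29 it moved further. In 1 of these the proximal to distal ratio fell below 1, and in another the rho of neighbouring lengths fell to about 0, at -0.00081. Of the 29 that stayed within these bounds, 12 left out a replicate, which keeps a value within 1 SD by construction. The alternatives change what is counted by their construction, and beyond that the cause was not tested. With regions closer than 1 kb joined, 3R had 920 members, 86.6% of them in both replicates, a covered share of 26.0%, a median gap of 6610 bp and a median length of 5377 bp. With the higher-scoring 50% of each list it had 695 members, a covered share of 18.2%, a ratio of 1.03 to the other autosomal arms and a proximal to distal ratio of 0.956, against 1.01 in the full lists. The median gap was then 9902 bp, the median length 6212 bp, and the windows ran from 4.84 to 41.5%. The replicate-set list gave a covered share of 27.8%, a proximal to distal ratio of 1.02, a median score of 0.858 and medians of 2304 bp for gaps and 3910 bp for members. Comparing the first with the last of 3 equal spans of the arm gave a ratio of 1.08. Windows of 250 kb ran from 0 to 75.1% and windows of 1 Mb from 10.8 to 42.3%. A joining distance of 20 kb gave 256 domains, and stretches of 50 kb or longer numbered 107. The rho of neighbouring scores was 0.0922 in replicate 2 and 0.0055 across gaps over 10 kb, and that of neighbouring lengths was 0.0364 in replicate 1 and -0.00081 across gaps over 10 kb, against 0.0668 over all pairs. Without replicate 1 or 2 the covered share was 25.1 to 25.5%. No paired analysis was possible because inputs were not analysed here, which leaves the 2 ChIP samples as 1 group. Depth is unknown, so a member without a match cannot be told from one just under a list's threshold. Most such members were under 2 kb.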
